A study of Mus musculus with 6 samples.

Results

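The granule proteases of mast cells were followed here in sorted mouse leukaemia cells. The set comprised 9 genes, taken by symbol from the deposited count table: the chymases Cma1, Mcpt1, Mcpt2 and Mcpt4, the basophil-type granule serine protease Mcpt8, the tryptases Tpsab1, Tpsb2 and Tpsg1, and the carboxypeptidase Cpa3. All 9 were among the 23608 rows of the table, and all 9 were among the 11614 genes that passed the filter on low counts and were tested. The leukaemia was driven by AE9a, a truncated AML1-ETO fusion protein, introduced with GFP by retrovirus into fetal liver cells that carried Usp18+/f and a Cre recombinase that tamoxifen activates. Cells of the same Usp18+/f AE9a leukaemia with this Cre were transplanted into irradiated recipient mice in both groups, and sick mice received oil or tamoxifen, which was given to delete 1 copy of Usp18. On day 3 from the first injection, leukaemia cells were taken from the spleen by a gate for GFP+, Lin- and c-Kit+ cells. There were 3 libraries for each of the 2 groups, described in the labels as biological replicates of a further batch.

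Mast cells store large amounts of protease in their secretory granules, packed onto the heparin chains of the proteoglycan serglycin. Classical chymases cut after aromatic residues, which need not hold for each mouse gene called a chymase here. Tryptases cut after lysine or arginine, and the soluble ones assemble as tetramers on heparin. Carboxypeptidase A3 removes residues from the C-terminal end of peptides. In the mouse, Cma1 (mMCP-5), Mcpt4 and Cpa3 are typical of connective tissue mast cells together with the tryptases, Mcpt1 and Mcpt2 are typical of mucosal mast cells, and Mcpt8 is a marker of basophils. Mast cells depend on stem cell factor, the ligand of c-Kit, and the sort gate used here keeps cells with c-Kit.

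The libraries held between 17118964 and 20741399 counts each. CPM stands here for counts scaled by the normalised size of each library. The targeted gene Usp18 had levels of 9.12, 11.0 and 11.2 CPM in the 3 oil libraries (1, 3 and 4) against 15.1, 28.0 and 19.4 CPM in the 3 tamoxifen libraries (1, 2 and 4). It was thus higher in each library labelled tamoxifen than in each library labelled oil (log2 fold change 0.998, SE 0.23, edgeR adjusted p = 0.0739), which goes against the labelled deletion, and counts per gene do not show whether an exon was lost. Tamoxifen 4 stood apart: across genes its log2 CPM had a mean correlation of 0.983 with the oil libraries and 0.972 with the other tamoxifen libraries. Results are therefore given with and without it. Leaving out the tamoxifen library nearest to oil favours differences between the groups. Genes called with edgeR went from 203 higher and 31 lower to 2278 and 2024 without it. Adjusted p-values without tamoxifen 4 are thus no separate support for a difference. Kit, which the sort gate uses, was measured at 439 to 782 CPM. Of the other markers listed for mast cells, Ms4a2 was measured at 830 to 931 CPM and Il1rl1 at 1598 to 2609.9 CPM, whereas Fcer1g did not exceed 0.608 CPM in any library. Erythroid markers summed to between 5632 and 10084 CPM, while neutrophil and B cell markers summed to at most 1.21 and 0.878 CPM. In RNA from bulk cells, a change in the share of cells that express a gene and a change in RNA per cell cannot be told apart.

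The proteases separated into a set that was higher in each library labelled tamoxifen and a set that was not. Levels of Cma1, Cpa3, Mcpt8, Tpsab1, Tpsb2 and Tpsg1 did not overlap between the groups, with ratios of the group means between 4.23 and 18.8, whereas those of Mcpt1, Mcpt2 and Mcpt4 overlapped, with ratios of 1.05, 1.37 and 1.65. Of all genes tested, 13.3% were higher and 11.8% lower in tamoxifen without overlap. With edgeR at an adjusted p under 0.05, 1 of the 9 proteases, Tpsb2, passed as higher and 0 as lower, beside 1.75% and 0.267% of all genes. At an unadjusted p under 0.05, 6 proteases were higher and 0 lower, beside 12.6% and 7.99% of all genes. The median log2 fold change of the 9 was 2.10, beside 0.00 over all genes tested.

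**Figure D1:**
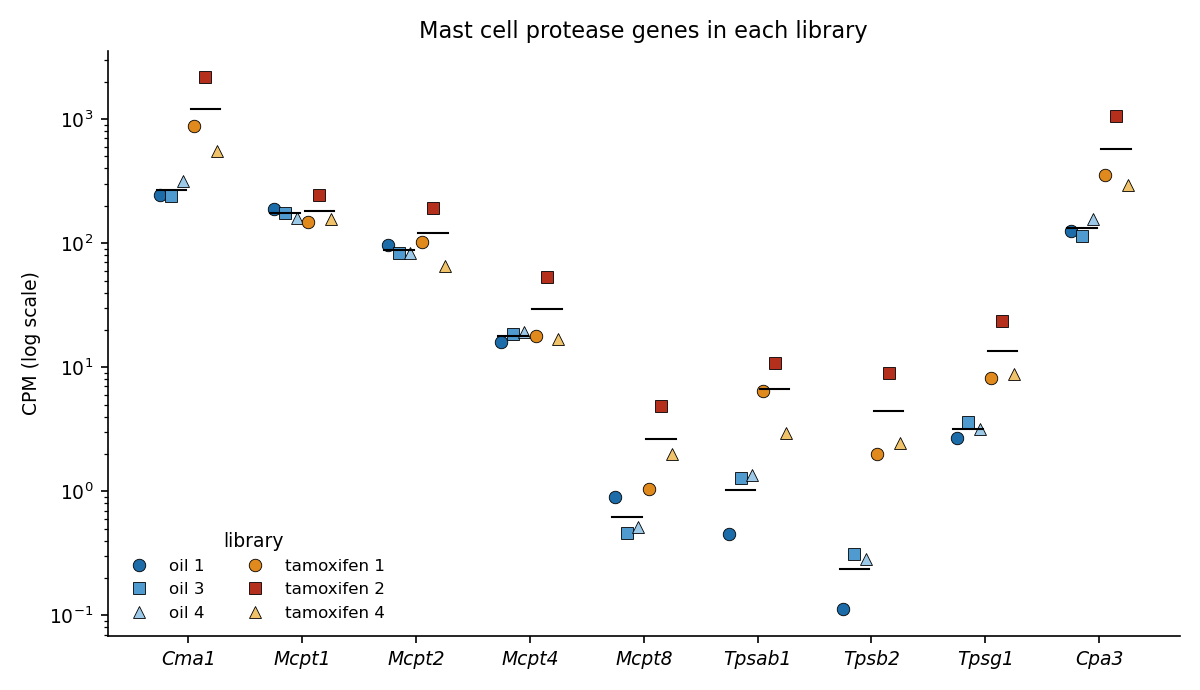
CPM of each protease gene in the 6 libraries on a log axis, with a point for each library and a line at each group mean. Tamoxifen 2 is the highest library for all 9 genes, and the oil and tamoxifen points of Mcpt1, Mcpt2 and Mcpt4 overlap.

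Cma1, which encodes the chymase mMCP-5, was the most abundant of the proteases in both groups. It had 246, 241 and 318 CPM in oil 1, 3 and 4 against 876, 2169.7 and 557 CPM in tamoxifen 1, 2 and 4. The lowest tamoxifen library was thus above the highest oil library, but the tamoxifen libraries differed among themselves by 3.90-fold against 1.32-fold among the oil libraries. The means were 269 ± 43.1 CPM in oil and 1201 ± 854 CPM in tamoxifen (SD, n = 3 each), and the log2 fold change of 2.16 (SE 0.45) missed the threshold (edgeR adjusted p = 0.0551). Among the rows of the table ranked by mean CPM, Cma1 was number 749 in oil and number 41 in tamoxifen. Without tamoxifen 4 its log2 fold change was 2.50 (SE 0.29, edgeR adjusted p = 0.000230).

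Cpa3 encodes the carboxypeptidase that is stored with mMCP-5 in mast cell granules and depends on it for storage. It had 126, 113 and 156 CPM in oil against 354, 1064 and 294 CPM in tamoxifen 1, 2 and 4. Its order over the tamoxifen libraries was that of Cma1, with tamoxifen 2 highest and tamoxifen 4 lowest. The means were 132 ± 22.0 and 571 ± 428 CPM (SD, n = 3 each). The log2 fold change was 2.11 (SE 0.46, edgeR adjusted p = 0.0640) with all 6 libraries and 2.42 (SE 0.34, edgeR adjusted p = 0.000651) without tamoxifen 4. Its rank by mean CPM was 1992 in oil and 188 in tamoxifen. Cpa3 was also the protease that passed without tamoxifen 2, its highest library, at a log2 fold change of 1.30 (edgeR adjusted p = 0.0441). The ratio of Cpa3 to Cma1 counts within a library stayed within a narrow band, from 0.471 to 0.513 in oil and from 0.404 to 0.529 in tamoxifen, and the groups overlapped.

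The tryptases were far less abundant, and Tpsb2 was the protease that passed the edgeR threshold with all 6 libraries. Tpsg1, Tpsab1, Cma1 and Cpa3 missed it narrowly, at edgeR adjusted p of 0.0522 to 0.0640. Tpsb2, which encodes mMCP-6, had 0.113, 0.315 and 0.283 CPM in oil against 2.00, 8.92 and 2.43 CPM in tamoxifen 1, 2 and 4. The oil values rest on 2 to 6.5 counts and the tamoxifen values on 36.5 to 151 counts. Tpsb2 thus passed the filter on low counts through the tamoxifen group, in which it is called higher, so its call is not independent of the filter. The log2 fold change was 4.16 (SE 0.75, edgeR adjusted p = 0.0402) and was 4.45 (SE 0.68, edgeR adjusted p = 0.00104) without tamoxifen 4. Leaving out any other library took the adjusted p to between 0.0692 and 0.209, so its call with 6 libraries depends on each of oil 1, 3 and 4 and tamoxifen 1 and 2, and limma-voom gave an adjusted p of 0.111.

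Tpsab1, the gene of mMCP-7, had 0.450, 1.28 and 1.36 CPM in oil against 6.45, 10.7 and 2.93 CPM in tamoxifen 1, 2 and 4. The groups did not overlap, and the log2 fold change was 2.70 (SE 0.55, edgeR adjusted p = 0.0523). Tpsg1, which encodes a tryptase with a membrane anchor, had 2.67, 3.61 and 3.19 CPM in oil against 8.26, 23.7 and 8.78 CPM in tamoxifen 1, 2 and 4. It too did not overlap between the groups, with a log2 fold change of 2.10 (SE 0.43, edgeR adjusted p = 0.0522). Both passed without tamoxifen 4, at log2 fold changes of 3.06 and 2.33 (edgeR adjusted p = 0.000388 and 0.00131). The ratio of Tpsb2 to Tpsab1 counts was 0.250, 0.245 and 0.208 in oil and 0.311, 0.830 and 0.830 in tamoxifen 1, 2 and 4. The oil ratios rest on 2 to 6.5 counts of Tpsb2, and their counting error is large beside the gap between oil 1 and tamoxifen 1.

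The 3 tryptase genes lie within 31.2 kb of mouse chromosome 17 (GRCm38, GENCODE M21): Tpsab1 at chr17:25343245-25345562 on the minus strand, Tpsb2 at chr17:25366305-25369098 and Tpsg1 at chr17:25369273-25374442, both on the plus strand and 0.175 kb apart. Tpsab1 and Tpsb2 are often treated as near-identical copies, so their sequences were compared to see whether reads could be split between them. Their coding sequences were 76.9% identical, and no exact stretch of 75 or 150 bases occurred in transcripts of both. The longest run shared by their coding sequences is given here as the most extreme case, at coding positions 301 to 339 of Tpsab1, in lower case because no part is marked:
Tpsab1 and Tpsb2 shared run: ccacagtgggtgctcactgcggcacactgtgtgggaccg
This run of 39 bases is shorter than either stretch. On the reference transcripts, an exact stretch of 75 bases can be assigned to 1 of the 2 genes. Shorter shared runs outside the coding sequences were not sought. RefSeq lists Tpsab1 of this assembly as a transcribed pseudogene, whereas GENCODE lists it as protein coding. Counts of its transcripts therefore do not show that mMCP-7 protein was made. For Tpsg1, 5.76% of its 75-base stretches also occur in transcripts of its neighbour Cacna1h, which leaves a part of its count uncertain if the reads were counted without strand.

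The levels of the chymases next to Cma1 overlapped between the groups. Mcpt1, which encodes the mucosal chymase mMCP-1, had 189, 174 and 159 CPM in oil against 149, 244 and 156 CPM in tamoxifen 1, 2 and 4. Tamoxifen 1 and 4 were below all oil libraries and tamoxifen 2 above them, and the log2 fold change was 0.07 (SE 0.19, edgeR adjusted p = 0.832). Mcpt1 was the protease that did not pass without tamoxifen 4 (log2 fold change 0.17, edgeR adjusted p = 0.445).

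Mcpt2 encodes mMCP-2, which resembles a chymase but has little known chymase activity. It had 96.3, 82.6 and 83.6 CPM in oil against 101, 193 and 65.7 CPM in tamoxifen 1, 2 and 4, and the groups overlapped (log2 fold change 0.46, SE 0.33, edgeR adjusted p = 0.441). Mcpt4, which encodes mMCP-4, the mouse protease closest in function to human chymase, had 15.9, 18.5 and 19.1 CPM in oil against 17.9, 53.3 and 17.02 CPM in tamoxifen 1, 2 and 4. Tamoxifen 2 was above the oil libraries, while tamoxifen 1 and 4 lay within their range (log2 fold change 0.72, SE 0.41, edgeR adjusted p = 0.344). Without tamoxifen 2 the log2 fold changes of Mcpt1, Mcpt2 and Mcpt4 were -0.19, -0.06 and -0.03, so the sign of all 3 rests on that library. Without tamoxifen 4, Mcpt2 and Mcpt4 passed, at log2 fold changes of 0.75 and 0.99 (edgeR adjusted p = 0.0182 and 0.0434).

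Mcpt8, which encodes mMCP-8, was near the lower end of detection in oil. It had 0.900, 0.460 and 0.514 CPM in oil, on 9.5 to 16 counts, against 1.04, 4.87 and 2.02 CPM in tamoxifen 1, 2 and 4, on 19 to 82.5 counts. The groups did not overlap, though tamoxifen 1 was close to oil 1, and the log2 fold change was 2.05 (SE 0.61, edgeR adjusted p = 0.131). As for Mcpt1, Tpsb2 and Tpsg1, its lowest tamoxifen library was tamoxifen 1. Of the 7 other basophil markers tested, Fcer1a, which is also on the list of mast cell markers, passed as higher and 0 passed as lower. Likewise 1 was higher and 0 lower both at an unadjusted p under 0.05 and with DESeq2. Of all genes, 1.75% passed as higher, 12.6% were higher at an unadjusted p under 0.05, and 6.14% were called higher with DESeq2. The median log2 fold change of the 7 markers was 0.20. Without tamoxifen 4, 8 were tested, and the median over these was 0.68. The added gene was Itga2 (log2 fold change 7.70), which had 0, 0.5 and 0 counts in oil and passed the filter through its tamoxifen counts.

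**Figure D2:**
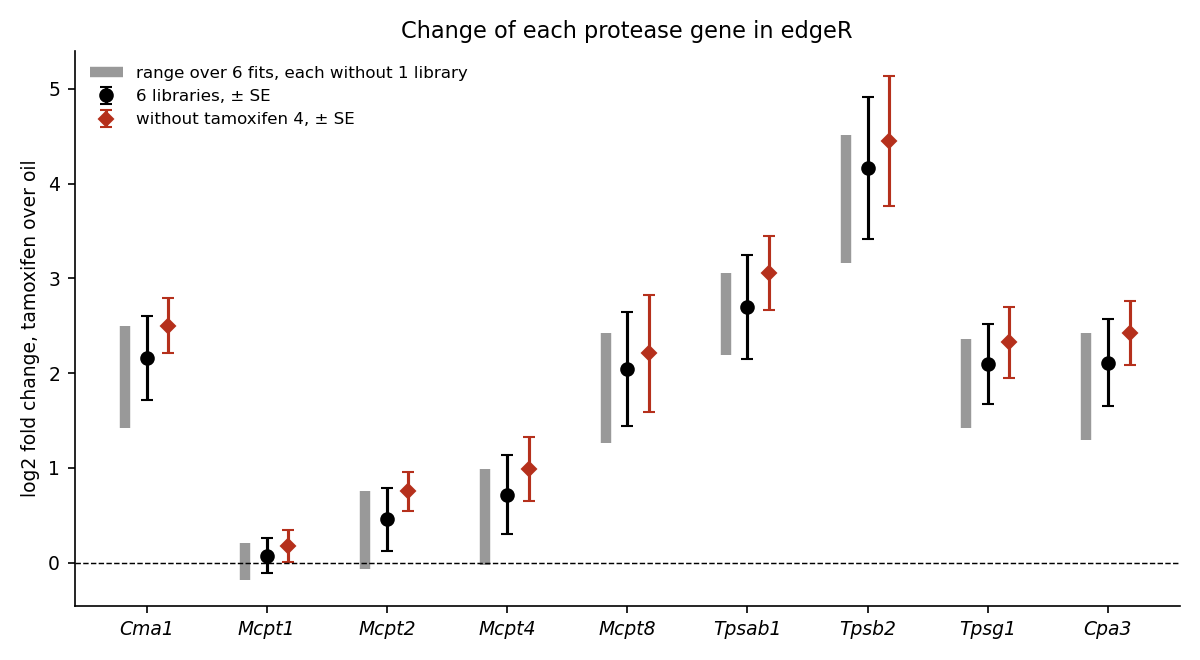
Log2 fold change of each protease gene in tamoxifen over oil in edgeR, with all 6 libraries (circles) and without tamoxifen 4 (diamonds), bars showing 1 SE, and grey bars spanning the 6 fits that each leave out 1 library. Cma1, Mcpt8, Tpsab1, Tpsb2, Tpsg1 and Cpa3 stay above 1 in each of these fits, whereas the grey bars of Mcpt1, Mcpt2 and Mcpt4 reach below 0.

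The number of proteases past the threshold varied with the processing. The DESeq2 Wald test called 6 as higher (Cma1, Cpa3, Mcpt8, Tpsab1, Tpsb2 and Tpsg1), beside 6.14% of all genes. Without tamoxifen 4, 8 of the 9 passed as higher, beside 19.2% of all genes. Upper-quartile scaling called 4, beside 1.99%, and no low-count filter called 5, beside 2.42%. With limma-voom, 0 passed, beside 0.413%, and with a filter at a mean of 50 counts, which removed Mcpt8 and Tpsb2, 0 of 7 passed, beside 1.17%. Leaving out oil 1, oil 3, oil 4 or tamoxifen 1 called 0, beside 0.0674%, 0.135%, 0.0675% and 0.0936%, and leaving out tamoxifen 2 called Cpa3 alone, beside 0.119%. Keeping the unrounded counts called Tpsb2, beside 1.79%, and a replicate block called 5, beside 1.85%. The block leaves oil 3 and tamoxifen 2 without a partner, so its group change rests on libraries 1 and 4 of each group. No protease passed as lower with DESeq2 or without tamoxifen 4, where 1.99% and 17.1% of all genes did.

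The 5 serine protease genes of chromosome 14 lie within 143.8 kb (GRCm38): Cma1 at chr14:55941451-55944675 on the minus strand, Mcpt1 at chr14:56017971-56020384 and Mcpt2 at chr14:56042041-56044642 on the plus strand, and Mcpt4 at chr14:56059629-56062313 and Mcpt8 at chr14:56082166-56085273 on the minus strand. Along this stretch the log2 fold changes were 2.16, 0.07, 0.46, 0.72 and 2.05. The fitted values of the outer genes were thus the larger ones, and differences between genes were not tested. Of the 11 other genes listed for the locus, 4 could be tested. Between Cma1 and Mcpt1, the chymase gene Cma2 had 1.18, 0.291 and 0.309 CPM in oil against 2.47, 4.25 and 1.63 CPM in tamoxifen (log2 fold change 2.25, SE 0.61, edgeR adjusted p = 0.105), and the pseudogene Mcpt-ps1, which overlaps it by 1.37 kb on the opposite strand, had a log2 fold change of 0.20 (SE 0.38, edgeR adjusted p = 0.777). Cma2 and Mcpt-ps1 share bases, and 2.51% of the 75-base stretches of Mcpt4 occur in Cma2, so reads may be split or shared between the genes of each pair. The first of these overlaps can be resolved only where reads were counted by strand, and the second lies on the same strand of both transcripts.

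Beyond Mcpt8, the neutral protease cathepsin G gene, Ctsg, was measured at 1.11 ± 0.306 CPM in oil and 3.70 ± 1.72 CPM in tamoxifen (SD, n = 3 each, log2 fold change 1.74, SE 0.40, edgeR adjusted p = 0.0746). Gzmb, which encodes the cytotoxic protease granzyme B at the far end of the locus, had 0, 1 and 1 counts in oil and 14.5, 98 and 24 counts in tamoxifen 1, 2 and 4 and passed as higher (edgeR adjusted p = 0.0454). Gzmd, Gzme, Gzmf, Gzmg and Gzmn were at 0 counts in all 6 libraries. At the tryptase locus, 7 of the 10 other serine protease genes were at 0 in all libraries, and the gene that could be tested, Prss34, a basophil protease, was measured at 0.397 ± 0.191 and 0.848 ± 0.478 CPM (SD, n = 3 each, edgeR adjusted p = 0.309).

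**Figure D3:**
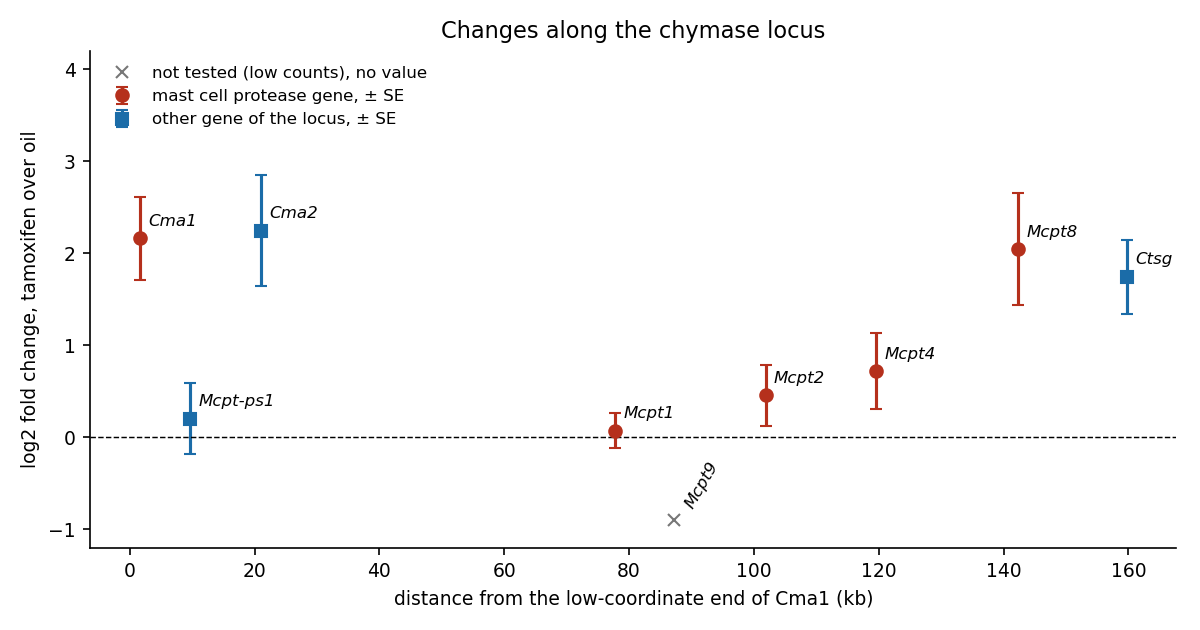
Log2 fold change in tamoxifen over oil, with SE, against the distance in kb from the low-coordinate end of Cma1, for the proteases (circles) and other genes (squares) up to Ctsg; the granzyme genes further along are not drawn, and the cross marks Mcpt9, which was not tested. Cma1 and Mcpt8, at the ends of the stretch of proteases, have changes of 2.16 and 2.05, and Mcpt1, Mcpt2 and Mcpt4 between them have 0.07 to 0.72.

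The coding sequences of the chymases were compared in the same way. Mcpt1 and Mcpt4 were 87.0% identical, Mcpt1 and Mcpt2 82.6% and Mcpt2 and Mcpt4 80.4%, while Cma1 was between 66.1% and 71.1% identical to the other 4 serine proteases of the locus. None of the 150-base stretches of these 5 genes occurred in transcripts of another gene. The 3 genes whose groups overlapped were thus also the most alike in sequence among these 5. The coding sequence of Cma2 was also alike, at 82.9%, 78.8% and 83.5% identity to those of Mcpt1, Mcpt2 and Mcpt4. Its groups did not overlap, at up to 1.18 CPM in oil and from 1.63 CPM in tamoxifen, so likeness did not go with overlap for this gene.

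The promoters of 2 genes with close profiles whose groups did not overlap, Cma1 and Cpa3, and of 2 whose groups overlapped, Mcpt1 and Mcpt4, are shown for comparison. They are RefSeq entries on GRCm38.p6 of 300 bases, 250 of them before the start site, read along the strand of the gene. Each was searched on both strands for the GATA motifs AGATAA and TGATAA, the RUNX motif TGTGGT, the TATA box TATAAA and the E-box CATGTG, which MITF binds. AE9a retains the DNA-binding domain of RUNX1, and GATA2 and MITF are factors of the mast cell lineage. Capitals mark each match, and a match on the opposite strand appears as its reverse complement:
Cma1 promoter, chr14:55944626-55944925, minus strand: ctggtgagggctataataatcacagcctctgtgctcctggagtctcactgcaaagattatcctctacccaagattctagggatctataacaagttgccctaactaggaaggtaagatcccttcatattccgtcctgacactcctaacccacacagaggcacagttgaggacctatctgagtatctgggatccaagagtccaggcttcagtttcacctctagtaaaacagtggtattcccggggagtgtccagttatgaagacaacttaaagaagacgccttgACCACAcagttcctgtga
Cpa3 promoter, chr3:20242132-20242431, minus strand: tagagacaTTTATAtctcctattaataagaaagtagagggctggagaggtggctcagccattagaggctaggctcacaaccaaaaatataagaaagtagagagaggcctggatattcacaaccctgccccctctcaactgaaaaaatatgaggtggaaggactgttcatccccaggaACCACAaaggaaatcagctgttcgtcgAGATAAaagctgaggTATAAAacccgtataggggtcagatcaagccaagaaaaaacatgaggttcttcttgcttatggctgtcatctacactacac
Mcpt1 promoter, chr14:56017714-56018013, plus strand: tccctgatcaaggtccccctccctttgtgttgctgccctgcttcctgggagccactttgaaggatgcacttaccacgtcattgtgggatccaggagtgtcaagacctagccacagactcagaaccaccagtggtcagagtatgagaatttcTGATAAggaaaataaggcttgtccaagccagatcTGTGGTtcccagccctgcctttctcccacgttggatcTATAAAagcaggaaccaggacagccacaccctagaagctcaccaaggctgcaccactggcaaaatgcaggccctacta
Mcpt4 promoter, chr14:56062261-56062560, minus strand: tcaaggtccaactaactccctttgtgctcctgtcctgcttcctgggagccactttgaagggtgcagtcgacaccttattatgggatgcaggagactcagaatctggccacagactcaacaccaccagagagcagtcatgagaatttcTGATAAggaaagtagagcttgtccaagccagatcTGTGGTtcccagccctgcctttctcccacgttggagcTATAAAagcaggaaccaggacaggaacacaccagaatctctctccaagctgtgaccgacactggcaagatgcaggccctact

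The promoters of Mcpt1 and Mcpt4 were 85.6% identical over 291 aligned bases and held the same 3 matches in the same order: TGATAA at -99 and -103, TGTGGT at -65 and -69, and TATAAA at -28 and -32 from the start site. The promoter of Cpa3 held AGATAA at -46 and TATAAA at -31, with TGTGGT at -73 and a further TATAAA at -242 on the opposite strand. That of Cma1 held TGTGGT on the opposite strand at 32, past the start site, which counts as 0, and no other match. Entries were present for 6 of the 9 genes; Mcpt2, Tpsab1 and Tpsb2 had none. Of the 6 genes, 6 held TGTGGT, 3 held TGATAA, 3 TATAAA, 2 AGATAA and 0 CATGTG in an entry, and these motifs were present in 16.8%, 9.1%, 13.6%, 11.2% and 14.2% of all 32851 promoter entries. Tpsg1 had 2 entries, which were both searched. The matches describe the letters in these windows and were not measured for binding here.

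Scaled to the length of all annotated exons of each gene joined together, Cma1 was the highest of the proteases in both groups. Mcpt8 and the 3 tryptases were the lowest 4. In oil, the levels in CPM per kb were 246 ± 39.5 for Cma1, 172 ± 15.1 for Mcpt1, 87.1 ± 14.5 for Cpa3, 82.5 ± 7.22 for Mcpt2 and 16.1 ± 1.55 for Mcpt4 (SD, n = 3 each). Tpsg1 followed at 2.27 ± 0.338, Mcpt8 at 0.626 ± 0.240, Tpsab1 at 0.493 ± 0.242 and Tpsb2 at 0.149 ± 0.0683 CPM per kb. The neighbours Cpa3 and Mcpt2, and Mcpt8 and Tpsab1, differed by less than their spread. The order of Mcpt8 and Tpsab1 also depends on their lengths of 998 and 2094 bases, as their mean CPM in oil were 0.625 and 1.03. In tamoxifen, Cpa3 at 376 ± 282 CPM per kb was above Mcpt1 at 181 ± 52.3 CPM per kb, behind Cma1 at 1102 ± 784 CPM per kb, with Mcpt2 at 113 ± 62.1, Mcpt4 at 26.5 ± 18.7 and Tpsg1 at 9.79 ± 6.33. The last 3, Tpsab1 at 3.20 ± 1.87, Tpsb2 at 2.79 ± 2.43 and Mcpt8 at 2.65 ± 1.99 CPM per kb, could not be ordered beyond their spread.

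The shares of Cma1 and Mcpt1 did not overlap between the groups, which restates the levels given above and is no separate support for a difference. The summed level of the 9 proteases was 566 to 651 CPM per kb in oil and was 1306, 3196 and 947 CPM per kb in tamoxifen 1, 2 and 4. Of this sum, Cma1 made up 37.4%, 39.1% and 44.8% in oil and 61.5%, 62.3% and 53.9% in tamoxifen. Mcpt1 made up 30.9%, 30.3% and 24.0% in oil and 11.2%, 7.53% and 16.3% in tamoxifen, and Mcpt2 made up between 12.1% and 15.0% in oil and between 5.70% and 7.32% in tamoxifen. The shares are parts of 1 sum, so a larger part of Cma1 makes the others smaller, and an exact permutation test of 3 libraries against 3 cannot give a p below 0.1.

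**Figure D4:**
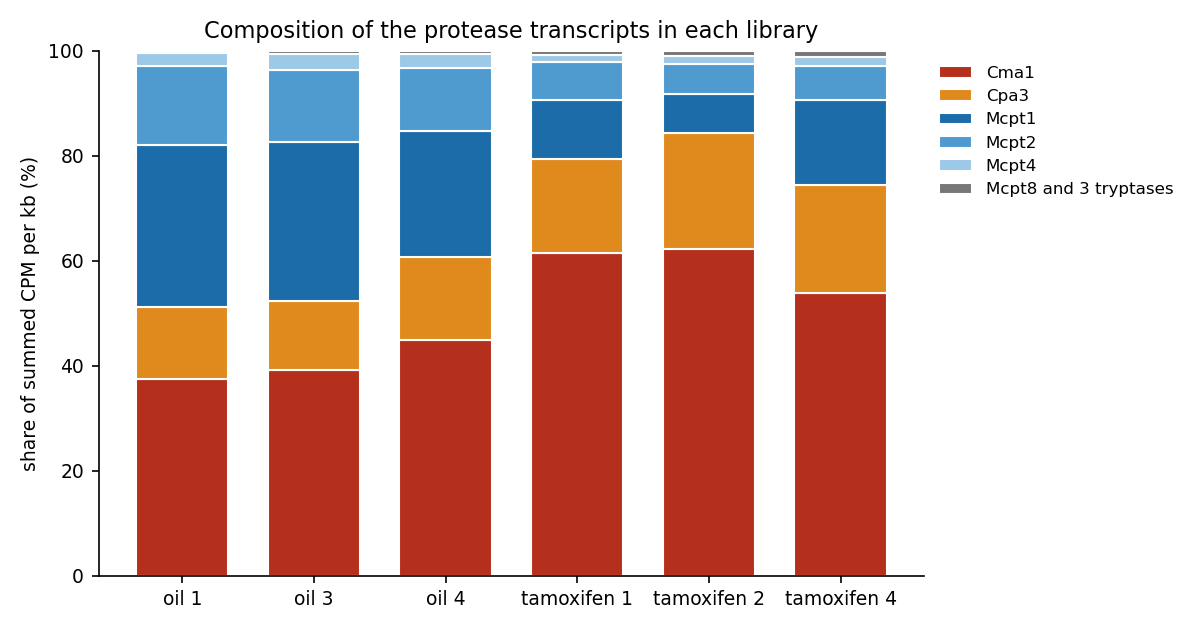
Share of each protease in the summed CPM per kb of the 9 genes, as a stacked bar from 0 to 100% for each library. Cma1 makes up 37.4% to 44.8% of the bar in oil and 53.9% to 62.3% in tamoxifen, and Mcpt1 24.0% to 30.9% and 7.53% to 16.3%.

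Ratios of counts within a library do not depend on how libraries are scaled. The ratio of Cma1 to Mcpt1 was 1.30, 1.39 and 2.00 in oil and 5.90, 8.89 and 3.56 in tamoxifen 1, 2 and 4. The ratio was thus above all oil values in each library labelled tamoxifen, as was Cma1 itself, so it is no separate support for a difference. The ratio of Cma1 to Kit, the receptor used for the sort, was 0.548 to 0.706 in oil and 1.25 to 2.78 in tamoxifen, and that of Mcpt1 to Kit was 0.352 to 0.421 in oil and 0.228 to 0.350 in tamoxifen. The ratio of Cma1 to Fcer1a, the IgE-binding chain of the IgE receptor, overlapped between the groups, at 2.46 to 3.71 in oil and 2.47 to 3.93 in tamoxifen.

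Markers of the mast cell lineage were followed in the same libraries. Summed over the 10 markers, they reached 4686 to 4942 CPM in oil and 7059.5, 7776 and 4955 CPM in tamoxifen 1, 2 and 4, so that tamoxifen 4 was next to oil. Of 9 tested, Fcer1a and Mitf passed as higher with edgeR and 0 as lower, beside 1.75% and 0.267% of all genes. At an unadjusted p under 0.05, 7 were higher and 0 lower, beside 12.6% and 7.99% of all genes. DESeq2 called 4 as higher and 0 as lower, beside 6.14% and 1.99% of all genes. The median log2 fold change of the 9 was 0.58. Fcer1a was measured at 84.0 ± 15.0 CPM in oil and 365 ± 183 CPM in tamoxifen (SD, n = 3 each, log2 fold change 2.12, edgeR adjusted p = 0.0381). Mitf, a transcription factor that mast cells require, was measured at 60.5 ± 1.66 and 99.3 ± 17.8 CPM (SD, n = 3 each, log2 fold change 0.71, edgeR adjusted p = 0.0434). Without tamoxifen 4, 8 of the 9 passed as higher, beside 19.2% of all genes. The part of these markers in the protease results was not tested.

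Of the genes that process and store granule proteases, 25 were tested, and 0 passed in either direction with edgeR. At an unadjusted p under 0.05, 7 were higher and 0 lower, and DESeq2 called 4 as higher and 0 as lower. Without tamoxifen 4, 14 passed as higher and 1 as lower. These shares are to be read beside those of all genes tested, which were 12.6% higher and 7.99% lower at an unadjusted p under 0.05, 6.14% and 1.99% with DESeq2, and 19.2% and 17.1% without tamoxifen 4. With all 6 libraries their median log2 fold change was 0.23. Srgn, which encodes the serglycin core protein, was measured at 1266 ± 57.6 and 1466.5 ± 197 CPM (SD, n = 3 each, edgeR adjusted p = 0.317), and Ndst2, the enzyme that starts heparin sulphation, at 896 ± 16.2 and 1060.0 ± 241 CPM (SD, n = 3 each, edgeR adjusted p = 0.396). Ctsc, which removes the activation peptide of chymases, was measured at 105 ± 10.8 and 127 ± 5.08 CPM (SD, n = 3 each, edgeR adjusted p = 0.192) and was named after its values were seen.

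Of the serine protease inhibitors, 1 of 11 tested passed as higher and 0 as lower. It was Serpina3g, at 1, 0 and 5 counts in oil and 2722.5, 2629 and 118.5 counts in tamoxifen 1, 2 and 4 (edgeR adjusted p = 0.0342). Of the receptors for growth factors and alarmins, 2 of 16 passed as higher, Crlf2, a chain of the TSLP receptor (log2 fold change 1.71, edgeR adjusted p = 0.0435), and Tgfbr1, a receptor chain for TGF-beta (log2 fold change 1.47, edgeR adjusted p = 0.0331), and 0 as lower. All 16 had positive log2 fold changes, beside 5809 of the 11614 genes tested. At an unadjusted p under 0.05, 8 of the 16 were higher, DESeq2 called 5 as higher, and 11 passed as higher without tamoxifen 4. Of the transcription factors of the lineage, 2 of 25 passed as higher, Mitf and Cebpb (log2 fold change 0.78, edgeR adjusted p = 0.0493), and 0 as lower. At an unadjusted p under 0.05, 10 were higher and 1 lower, DESeq2 called 7 as higher and 1 as lower, and 15 and 2 passed without tamoxifen 4. Among all genes tested, 1.75% passed as higher and 0.267% as lower with edgeR. Those shares were 12.6% and 7.99% at an unadjusted p under 0.05, 6.14% and 1.99% with DESeq2, and 19.2% and 17.1% without tamoxifen 4. Of the carboxypeptidases other than Cpa3, 0 of 5 tested passed with edgeR in either direction, 0 were higher and 1 lower at an unadjusted p under 0.05, and DESeq2 called 0. Their median log2 fold change was -0.19, and the most abundant, Cpd, was measured at 1144 ± 83.8 and 1003 ± 205 CPM (SD, n = 3 each, edgeR adjusted p = 0.486).

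**Figure D5:**
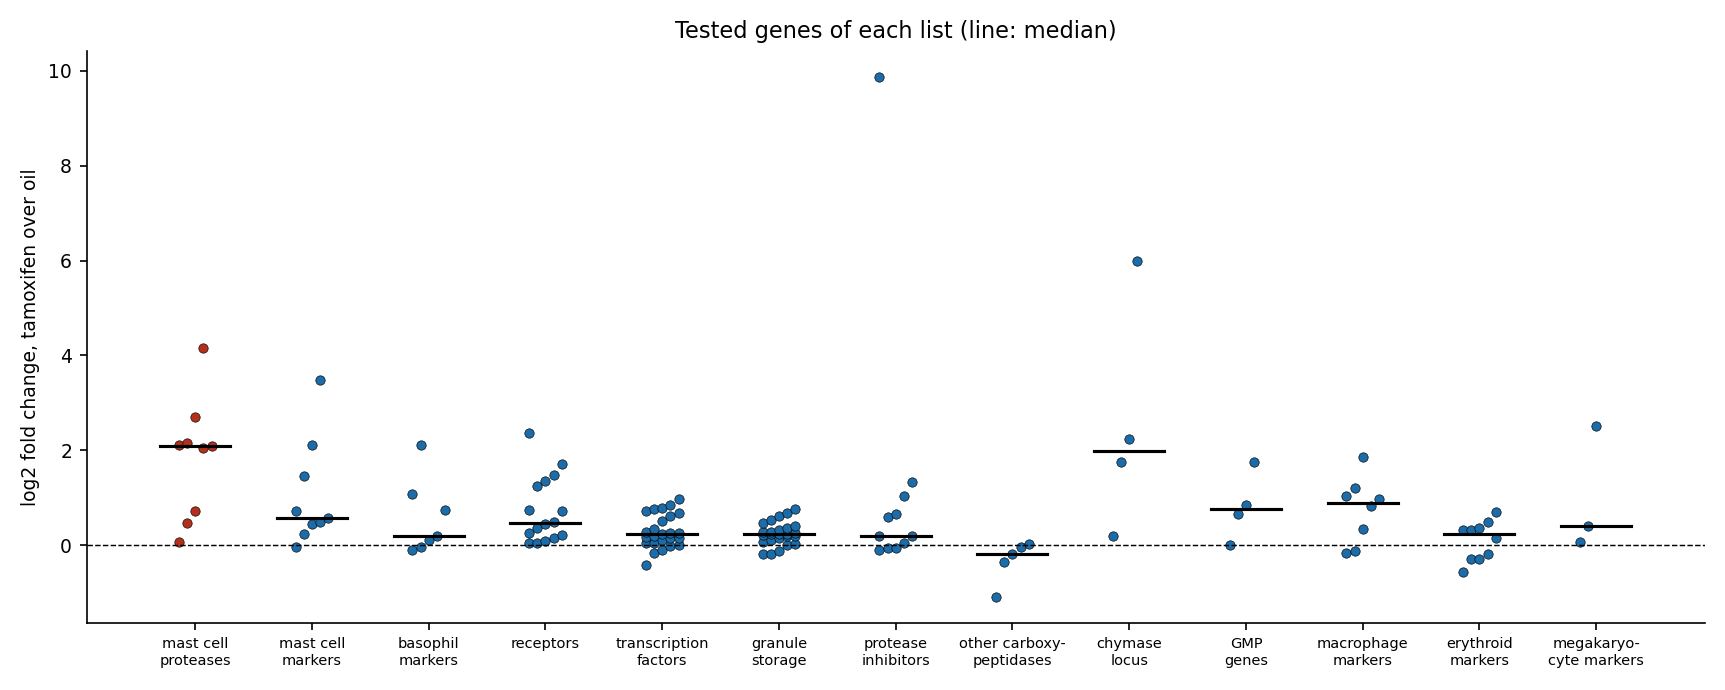
Log2 fold change in tamoxifen over oil of each tested gene, in the proteases and in the 12 other lists with at least 3 tested genes (GMP, granulocyte-monocyte progenitor), with a line at each median. The proteases have a median of 2.10, the other chymase-locus genes 2.00 over 4 genes, and the other 11 lists between -0.19 and 0.89, and the single point near 10 is Serpina3g. Lists with fewer tested genes are not drawn: the tryptase-locus gene Prss34 had 1.09, the T and NK cell marker Nkg7 4.03, and the 2 eosinophil markers a median of 0.46.

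Markers of other cell types were checked beside the proteases. Of the granulocyte-monocyte progenitor genes, Elane was at 0 in all libraries, 0 of 4 tested passed with edgeR (2 higher and 0 lower at an unadjusted p under 0.05, as with DESeq2), and Cst7 was measured at 55.6 ± 5.002 and 87.6 ± 19.1 CPM (SD, n = 3 each, edgeR adjusted p = 0.0813). Of the eosinophil markers, Epx, Prg3, Ear1 and Ear6 were at 0 in all libraries, and Siglecf was measured at 8.003 ± 1.38 and 13.0 ± 6.17 CPM (SD, n = 3 each, edgeR adjusted p = 0.281). Macrophage markers summed to 5.27 to 10.1 CPM in oil and 8.37 to 16.7 CPM in tamoxifen, and 0 of 8 tested passed with edgeR, where 2 were higher and 0 lower at an unadjusted p under 0.05 and DESeq2 called 1 as higher. Of the T and NK cell markers, Cd3e, Cd8a, Ncr1, Klrb1c, Gzma and Prf1 were at 0 in all libraries, and Nkg7, a granule protein, passed as higher (log2 fold change 4.03, edgeR adjusted p = 0.0410). Of 3 megakaryocyte markers, Itga2b rose (log2 fold change 2.51, edgeR adjusted p = 0.0435).

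The genes with the most similar profiles over the 6 libraries were sought among 8897 genes with a mean of at least 10 CPM, by the root mean square difference of log2 CPM after each gene was centred on its mean. The nearest to Cpa3 was Gm2a, the GM2 ganglioside activator of lysosomes, at a difference of 0.0708. Gm2a had 8.84, 8.43 and 12.3 CPM in oil against 26.0, 81.0 and 24.1 CPM in tamoxifen 1, 2 and 4, and it was also the nearest to Cma1 and Tpsg1, at 0.164 and 0.226. For comparison, the difference between Cma1 and Cpa3 themselves was 0.125 and that between Cma1 and Mcpt1 was 1.04. Cma1 was next nearest to Itga2b, the integrin alpha-IIb chain, and Chst1, a sulphotransferase, at 0.205 and 0.207, and Cpa3 to Hrh2, a histamine receptor, and Vim, vimentin, at 0.286 and 0.288.

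The genes nearest to Mcpt1 were Lyl1, a transcription factor of blood progenitors, Cdkn2d, an inhibitor of cyclin-dependent kinases, and Plcxd1, at 0.0621, 0.0881 and 0.0934. The nearest to Mcpt2 were Limd2, Itgb2 and Mettl7a1 at 0.144 to 0.147, and those to Mcpt4 were Galnt6, Irgm2 and Limd2 at 0.226 to 0.250. The nearest to Tpsab1 were Rgs1, Il16 and S100a6 at 0.314 to 0.372, those to Tpsg1 after Gm2a were Gfod1 and Irf7 at 0.302 and 0.311, those to Mcpt8 were Plekhg3, Gm2a and Tdrd7 at 0.362 to 0.461, and those to Tpsb2 were Nkg7, Clec4e and E330020D12Rik at 0.524 to 0.652. The profiles of genes with few counts carry more counting error, and the 6 points share 2 groups and a high tamoxifen 2.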

How the data were processed

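The values deposited by the authors are estimated counts for each gene, unscaled between libraries. The paper names STAR and DESeq2, and the labels name mm10. The counting program, its strand setting and its annotation are not given in the sources used here. Between 25.9% and 27.3% of values in a library were not whole, and counts were rounded before testing. In 26 rows the symbol had become a date, and these were not named. Titles and columns number the libraries differently. The numbers of the columns are used, and oil 3 and tamoxifen 2 were assigned by group only. The methods give 3 mice in each group and the labels call the libraries biological replicates; all mice received the same leukaemia, so p-values measure the spread between recipients.

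Tests were run with edgeR 4.0.16 under R 4.3.3 (filterByExpr, TMM, quasi-likelihood F test, no block), with Benjamini-Hochberg adjustment over 11614 genes. Genes with few counts in oil, such as Tpsb2, Gzmb and Serpina3g, passed the filter through their tamoxifen libraries. SEs were derived from F statistics. CPM uses as total the tested genes after TMM scaling, and log2 CPM used a prior count of 2. Alternatives were DESeq2 1.42.0, limma 3.58.1 (voom), other scalings and filters, a replicate block and leaving out each library. The proteases, the 17 gene lists and the rule for naming genes were chosen with earlier results of these data known. The genes named are the proteases, Usp18, of each list at most 4 genes past the threshold or otherwise the 2 most abundant, and the 3 nearest profiles of each protease. Further genes serve as marker checks. A result for 1 marker is not reported here. Lengths and positions come from GENCODE M21 on GRCm38.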

Additional observations from a re-analysis of the deposited data

How the results depend on the processing

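Log2 fold changes of Cma1, Cpa3, Mcpt8, Tpsab1, Tpsb2 and Tpsg1 were positive in all alternatives tried. Leaving out 1 library at a time gave 1.42 to 2.50 for Cma1, 1.30 to 2.42 for Cpa3, 1.26 to 2.43 for Mcpt8, 2.19 to 3.06 for Tpsab1, 3.16 to 4.52 for Tpsb2, 1.43 to 2.36 for Tpsg1, -0.19 to 0.20 for Mcpt1, -0.064 to 0.75 for Mcpt2, -0.029 to 0.99 for Mcpt4 and 0.73 to 1.18 for Usp18. It gave 0 to 8 proteases called higher, 8 to 2278 genes called higher and 0 to 2024 called lower, with the highest counts without tamoxifen 4; counts of 0 lower genes came from edgeR, where 1373 to 1659 genes of both directions had an unadjusted p under 0.05. Without tamoxifen 4 the median log2 fold change was 0.00458 over the 11851 genes then tested, 0.68 over 8 basophil markers and 1.01 over 3 eosinophil markers. With all 6 libraries, 7 basophil and 2 eosinophil markers were tested, so the medians with and without tamoxifen 4 cover different genes. The cause of the shifts in the numbers of genes called was not tested.

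Against 1 protease, 203 higher and 31 lower genes, DESeq2 called 6, 713 and 231, limma-voom called 0, 48 and 6, the fit without a filter 5, 372 and 61, and a mean of at least 50 counts 0 of 7, 120 and 17; upper-quartile scaling called 4 proteases. At an unadjusted p under 0.05 these fits held 2530, 2345, 2858, 2066 and 2341 genes. Upper-quartile scaling gave 2.17 for Cma1, 2.72 for Tpsab1 and 2.11 for Tpsg1. DESeq2 gave 2.16 for Cma1, 2.06 for Mcpt8, 2.72 for Tpsab1, 2.10 for Tpsg1, 2.11 for Cpa3 and 0.9997 for Usp18, and no filter gave 2.15 for Cma1, 2.69 for Tpsab1, 2.09 for Tpsg1, 2.10 for Cpa3 and 0.99 for Usp18, each past the threshold. With limma-voom Tpsb2 had 3.80 (adjusted p = 0.111). Summing Tpsab1 and Tpsb2, chosen after seeing the data, gave 3.11 (edgeR adjusted p = 0.0415). Keeping unrounded counts, also added later, changed no call of a protease and called 208 genes higher and 32 lower.

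The replicate numbers shared by the groups were 1 and 4; the deviations of the libraries of a number had correlations of -0.13 and 0.06, which pairs them in number alone. The replicate block called 5 proteases and gave 1.32 for Cma1, 2.33 for Tpsab1, 1.53 for Tpsg1, 1.20 for Cpa3, -0.19 for Mcpt1 and -0.14 for Mcpt2. In this fit oil 3 and tamoxifen 2 had no partner of the same number. Its group change therefore rests on oil 1 and 4 and tamoxifen 1 and 4, without the highest tamoxifen library. Depth limits Tpsb2 and Mcpt8 most, at 2 to 16 counts in the oil libraries.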
